A study of Mus musculus with 14 samples.

Results

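DNA replication and S phase genes were examined in whole eyes of newborn mice that lacked 1 of 2 chromatin remodelling ATPases. The set was a list of 36 named genes that license and fire replication origins, copy DNA, supply nucleotides, start S phase or rebuild chromatin behind the fork. Of these, 35 had a probe set annotated to that gene alone, among 12393 genes measured in all, and Gins2, a subunit of the replicative helicase, was not measured by this rule. None of the 35 measured genes passed the test in either knockout, where 0.0161% of all genes did in Snf2h and 1.09% in Brg1 knockout eyes. Their changes lay between −0.63 and 0.44 on the log2 scale in Snf2h knockout eyes and between −0.51 and 0.53 in Brg1 knockout eyes.

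Eyes were taken at postnatal day 1 and total RNA of the whole eye was hybridised to 14 single-colour arrays in 4 groups. The Snf2h experiment held 4 wildtype samples and 4 samples from pups with a lens-conditional knockout (cKO) of Snf2h, the ISWI ATPase encoded by Smarca5, all of strain C57BL/6. The Brg1 experiment held 3 wildtype samples and 3 Brg1 cKO samples of a mixed background, Brg1 being the SWI/SNF ATPase encoded by Smarca4. The labels name neither the Cre driver of either line nor the cells in which Brg1 was deleted, and they do not say whether a sample was 1 animal or a pool. The series text speaks of biological replicates, without saying from which animals they came. The p values then measure only the spread between these samples. Because the whole eye was measured, fewer cells of a type and less RNA per cell cannot be told apart here, and a change in lens cells is diluted by RNA of the retina and the other eye tissues.

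Replication is prepared in G1, when the origin recognition complex, Cdc6 and Cdt1 load the Mcm2-7 ring onto DNA. At the start of S phase, kinases including cyclin E with its partner kinase help turn each ring into an active helicase with Cdc45 and GINS, and primase, polymerases and the sliding clamp Pcna then copy both strands. Many of these genes are targets of E2F transcription factors and are transcribed as cells approach S phase. In the newborn mouse eye the dividing cells include retinal progenitors and the lens epithelium, and lens cells leave the cycle as they become fibres.

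Words that E2F factors recognise were looked for in the promoters. Of the 36 genes, 30 had a promoter window in the RefSeq table (GRCm38.p6, 250 bases before to 50 after the annotated start), and Gins1, Gins2, Mcm4, Ccne2, Pole and Rfc2 were not matched. The 4 E2F words TTTCCCGC, TTTCGCGC, TTTGCCGC and TTTGGCGC were searched on both strands. At least 1 of them was present in 12 of 30 genes (40%), against 704 of all 27025 genes in the table (2.605%) and 11 of 35 matched other replication genes (31.4%). The CCAAT box, CCAAT on either strand, was present in 18 of 30 (60%) against 41.1% of all genes. The letters TTTGAA of the CHR element, known from mitotic promoters, were present in 3 of 30 (10%) against 20.2% of all genes. A match describes these letters and does not show that a factor binds.

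The stretches upstream of the 5 origin licensing genes with an E2F word before the start are shown, since their products act in 1 step and their changes differed in sign. Each is written 5′ to 3′ on the gene's strand with the E2F words in capitals. Words on opposite strands that overlap form a single capital run in Mcm5 and at the first site of Mcm6.
Cdc6, chr11:98907997-98908036, plus strand: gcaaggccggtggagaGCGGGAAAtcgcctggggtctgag
Orc1, chr4:108579411-108579450, plus strand: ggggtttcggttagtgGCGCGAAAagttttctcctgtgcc
Mcm5, chr8:75109340-75109383, plus strand: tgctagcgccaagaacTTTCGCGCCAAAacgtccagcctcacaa
Mcm6, chr1:128359729-128359831, minus strand: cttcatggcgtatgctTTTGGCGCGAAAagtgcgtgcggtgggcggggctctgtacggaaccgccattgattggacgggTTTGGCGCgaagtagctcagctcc
Mcm7, chr5:138172025-138172064, minus strand: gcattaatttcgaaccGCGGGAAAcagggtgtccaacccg
These 5 genes share E2F words in this window. In Snf2h cKO eyes Cdc6 (−0.31 ± 0.13) and Orc1 (−0.50 ± 0.21) had negative log2 changes (± SE). Mcm5 (0.03 ± 0.15), Mcm6 (0.31 ± 0.18) and Mcm7 (0.10 ± 0.12) had positive ones. None of the 5 passed the test, and the sign of Mcm5 turned when single arrays were left out. Over the 12 genes with an E2F word the median log2 change was −0.13 in Snf2h cKO eyes (6 of 12 negative) and −0.05 in Brg1 cKO eyes (8 of 12 negative). Over the 18 without one it was −0.04 (11 of 18 negative) and −0.07 (13 of 18 negative).

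Some arrays of the Snf2h experiment stood apart. Over all genes, log2 levels of cKO replicates 1 and 2 differed by an SD of only 0.205, where the remaining 17 same-group pairs differed by 0.401 to 0.723. The gap between the 3′ and 5′ probe sets of Gapdh, a sign of RNA quality, was 4.47 in wildtype replicate 3, 1.09 to 1.46 in wildtype replicates 1, 2 and 4, and 0.77 to 0.99 in cKO eyes. Cornified skin markers (17 genes) averaged a log2 level of 6.52 on that array, 4.18 to 4.46 on the rest of the wildtype arrays and 4.07 to 4.22 on the cKO arrays. Lens and retina were present as labelled, with a mean log2 level of 10.995 to 11.559 over 16 lens fibre markers and 8.95 to 9.55 over 16 retinal progenitor markers in the wildtype arrays. The transcripts of the deleted genes did not pass the test, with Smarca5 at −0.50 ± 0.16 (log2 change ± SE, adjusted p = 0.188) in Snf2h cKO and Smarca4 at −0.74 ± 0.30 (adjusted p = 0.579) in Brg1 cKO eyes by 1 probe set each. The other probe sets gave −0.19 and 0.31 for Smarca5 and 0.05 for Smarca4, and whether any of them lies in the deleted part is not given in the sources used here.

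In Snf2h cKO eyes 0 of 35 genes passed an adjusted p of 0.05 in limma over all genes, where 0.0161% of all genes did. At an unadjusted p under 0.05, 6 of 35 were lower (17.1%) and 0 were higher, where 8.62% of all genes were lower and 8.31% higher. The 6 were Mcm10, Rfc4, Cdc6, Orc1, Mcm2 and Fen1. Only Mcm10 and Rfc4 remained below that level with the near-identical arrays averaged as 1 sample, without wildtype replicate 3, or without cKO replicate 1 or 2. These 2 were 5.71% of 35, where 6.00%, 7.02%, 6.14% and 5.96% of all genes were lower in these settings, in that order. Without wildtype replicate 4 the counts were 10 lower (28.6%) and 4 higher, where 10.6% of all genes were lower and 11.2% higher. In 5 genes (Mcm10, Rfc4, Cdc6, Prim1 and Fen1) all 4 cKO arrays lay below all wildtype arrays, and in 0 all lay above, where 4.81% and 5.50% of all genes showed these patterns. The median change was −0.05, the same as over all genes, with 21 negative and 14 positive. For 34 of 35 genes the 95% interval stayed within a log2 change of 1 either way, the exception being Pold1 with −1.02 to 0.15.

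In Brg1 cKO eyes 0 of 35 genes passed, where 1.09% of all genes did. Mcm4 was the only 1 of 35 at an unadjusted p under 0.05, where 9.21% of all genes were. The groups did not overlap for 3 lower genes (Mcm4, Rrm2 and Slbp) and 1 higher gene (Pola2), where 6.25% and 8.28% of all genes were lower and higher in this way. The median change was −0.06 against 0.02 over all genes, with 24 negative and 11 positive. The 95% interval stayed within a log2 change of 1 for 32 of 35 genes, the exceptions being Mcm2, Orc1 and Pold1, whose upper bounds were 1.24, 1.22 and 1.33. With 3 arrays a group, the median SE was 0.193, against 0.149 in the Snf2h experiment.

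**Figure D1:**
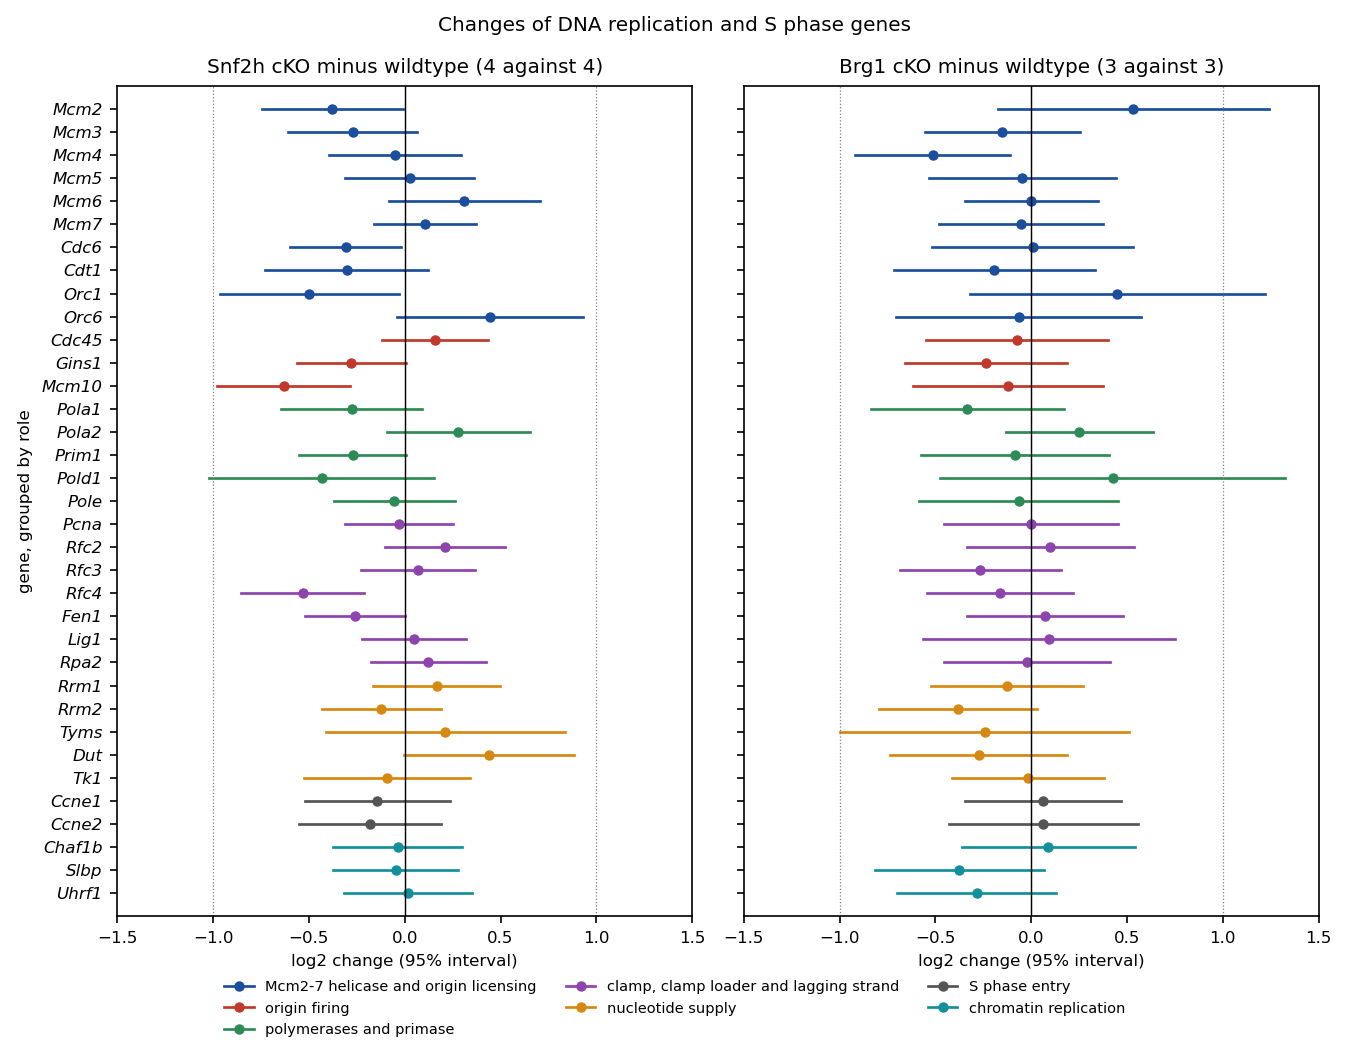
Log2 change of each of the 35 measured genes (points) with its 95% interval (lines) in Snf2h cKO eyes (left, 4 against 4 arrays) and Brg1 cKO eyes (right, 3 against 3), coloured by role, with dotted lines at −1 and 1. Most intervals cross 0, Mcm10 and Rfc4 lie furthest below 0 on the left at −0.63 and −0.53, and Mcm4 at −0.51 on the right.

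The Mcm2-7 ring is the core of the replicative helicase, and its 6 subunits did not share a direction in Snf2h cKO eyes. Mcm2 read 9.33, 9.55, 9.66 and 9.19 on the wildtype arrays and 8.86, 9.04, 9.38 and 8.94 on the cKO arrays of the Snf2h experiment, as log2 intensity in replicate order. The groups overlapped through cKO replicate 3, the highest cKO array, and wildtype replicates 1 and 4. The log2 change was −0.38 ± 0.16 (SE, adjusted p = 0.285), and its other probe set gave −0.00084. Mcm3 read 9.61, 9.67, 9.67 and 9.34 against 9.49, 9.18, 9.47 and 9.06, with overlapping groups and a change of −0.27 ± 0.15 (adjusted p = 0.376). Its other probe sets ranged from −0.22 to 0.59, and with the mean of all its probe sets the change was −0.017.

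Mcm4 and Mcm5 lay close to wildtype, and Mcm6 and Mcm7 had positive changes. Mcm4 read 10.02, 10.11, 9.75 and 9.59 in wildtype and 9.86, 9.86, 9.93 and 9.61 in Snf2h cKO eyes (change −0.05 ± 0.15, adjusted p = 0.883). Mcm5 read 9.42, 9.32, 9.21 and 9.81 against 9.44, 9.54, 9.47 and 9.42 (0.03 ± 0.15, adjusted p = 0.942). Both overlapped fully, and their signs turned when single arrays were left out. Mcm6 read 10.34, 10.17, 10.02 and 10.73 against 10.73, 10.76, 10.65 and 10.37 (0.31 ± 0.18, adjusted p = 0.385), and a second Mcm6 probe set gave −0.05. Mcm7 read 11.19, 11.24, 11.25 and 11.41 against 11.48, 11.42, 11.34 and 11.26 (0.10 ± 0.12, adjusted p = 0.666). In both, 1 wildtype array, replicate 4, reached the cKO values.

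Mcm4 had the smallest p of the 35 genes in Brg1 cKO eyes. It read 10.42, 10.51 and 10.15 in wildtype and 9.95, 9.87 and 9.71 in cKO arrays, and every cKO array was below every wildtype array. The change was −0.51 ± 0.17 (SE, adjusted p = 0.366), or 70.1% of wildtype. The other Mcm4 probe set, of about the same brightness, read 10.35, 10.48 and 10.33 against 10.17, 10.25 and 10.36, a change of −0.13 with overlapping groups. Mcm4 did not stay at an unadjusted p under 0.05 with the mean of both probe sets, where its change was −0.32, or without Brg1 wildtype replicate 1 or 2 or cKO replicate 3.

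Mcm2 had the largest positive change in Brg1 cKO eyes, and it rested on single arrays. It read 9.28, 9.04 and 8.82 in wildtype and 9.70, 10.09 and 8.94 in cKO arrays. The change was 0.53 ± 0.30 (adjusted p = 0.710), or 0.27 without cKO replicate 2 and 0.85 without cKO replicate 3, and the other probe set gave 0.017. Mcm3 read 9.64, 9.42 and 9.69 against 9.29, 9.38 and 9.63 (−0.15 ± 0.17, adjusted p = 0.877). Mcm5 read 8.67, 8.87 and 8.52 against 8.98, 8.55 and 8.39 (−0.05 ± 0.21, adjusted p = 0.969). The groups overlapped for each. Mcm6 read 10.09, 10.12 and 10.11 against 10.19, 10.05 and 10.07 (−0.00044 ± 0.15, adjusted p = 0.999), and Mcm7 read 10.96, 11.09 and 10.98 against 11.22, 10.72 and 10.93 (−0.05 ± 0.18, adjusted p = 0.960). The Mcm6 interval, −0.35 to 0.35, was among the narrower ones.

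Among the loaders of the ring, Cdc6 and Orc1 had negative changes in Snf2h cKO eyes. Cdc6, the ATPase that recruits the ring to origins, read 7.80, 7.79, 7.96 and 8.18 in wildtype and 7.60, 7.58, 7.66 and 7.65 in cKO arrays. All cKO arrays were below all wildtype arrays and the change was −0.31 ± 0.13 (adjusted p = 0.273). Orc1, the largest subunit of the origin recognition complex, read 5.23, 4.51, 5.29 and 5.12 against 4.56, 4.37, 4.92 and 4.31. Here wildtype replicate 2 lay among the cKO arrays, and the change was −0.50 ± 0.21 (adjusted p = 0.273). Orc1 was dim, below the median level of 6.87 over all probe sets annotated to a single gene, where background can hide part of a difference. Cdc6 gave 0.0069 ± 0.23 and Orc1 0.45 ± 0.33 in Brg1 cKO eyes (adjusted p = 0.996 and 0.785).

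The remaining licensing genes did not separate the groups. Cdt1, the partner of Cdc6, averaged 10.61 in wildtype and 10.31 in Snf2h cKO arrays (−0.30 ± 0.19), and 9.81 and 9.62 in the Brg1 experiment (−0.19 ± 0.22). Orc6, the smallest subunit of the origin complex, averaged 8.69 and 9.13 (0.44 ± 0.22), and 9.71 and 9.65 (−0.07 ± 0.27). Adjusted p values were 0.325 to 0.969 for this pair.

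Mcm10, which binds the activated helicase and is needed for forks to start, had the smallest p of the 35 genes in Snf2h cKO eyes. It read 8.57, 8.42, 8.92 and 8.62 in wildtype and 8.14, 8.18, 7.78 and 7.91 in cKO arrays. Every cKO array was below every wildtype array, with a cKO level of 64.5% of wildtype and SDs of 0.21 in wildtype and 0.19 in cKO arrays (n = 4 each). The change was −0.63 ± 0.15 (SE, adjusted p = 0.163), −0.54 (adjusted p = 0.233) without wildtype replicate 3, its highest array, and −0.68 (adjusted p = 0.383) with the near-identical arrays averaged. Over the settings run its adjusted p was 0.0860 to 0.412. The other Mcm10 probe set gave −0.48, reading 8.09, 7.81, 8.30 and 8.06 against 7.82, 7.57, 7.51 and 7.46. Mcm10 in Brg1 cKO eyes gave −0.12 ± 0.21 (adjusted p = 0.923), from 7.23, 7.56 and 7.29 in wildtype to 7.58, 7.18 and 6.95.

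The groups overlapped for the other firing factors. Gins1, a subunit of the GINS part of the helicase, read 10.17, 10.06, 9.97 and 9.83 in wildtype and 9.67, 9.68, 9.86 and 9.71 in Snf2h cKO arrays. Only wildtype replicate 4 and cKO replicate 3 overlapped, and the change was −0.28 ± 0.13 (adjusted p = 0.300). Its change in Brg1 cKO eyes was −0.23 ± 0.18 (means 9.69 and 9.45). Cdc45, which joins GINS on the ring, averaged 7.53 in wildtype and 7.69 in Snf2h cKO arrays (0.16 ± 0.12), and 7.56 and 7.49 in the Brg1 experiment (−0.08 ± 0.20).

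**Figure D2:**
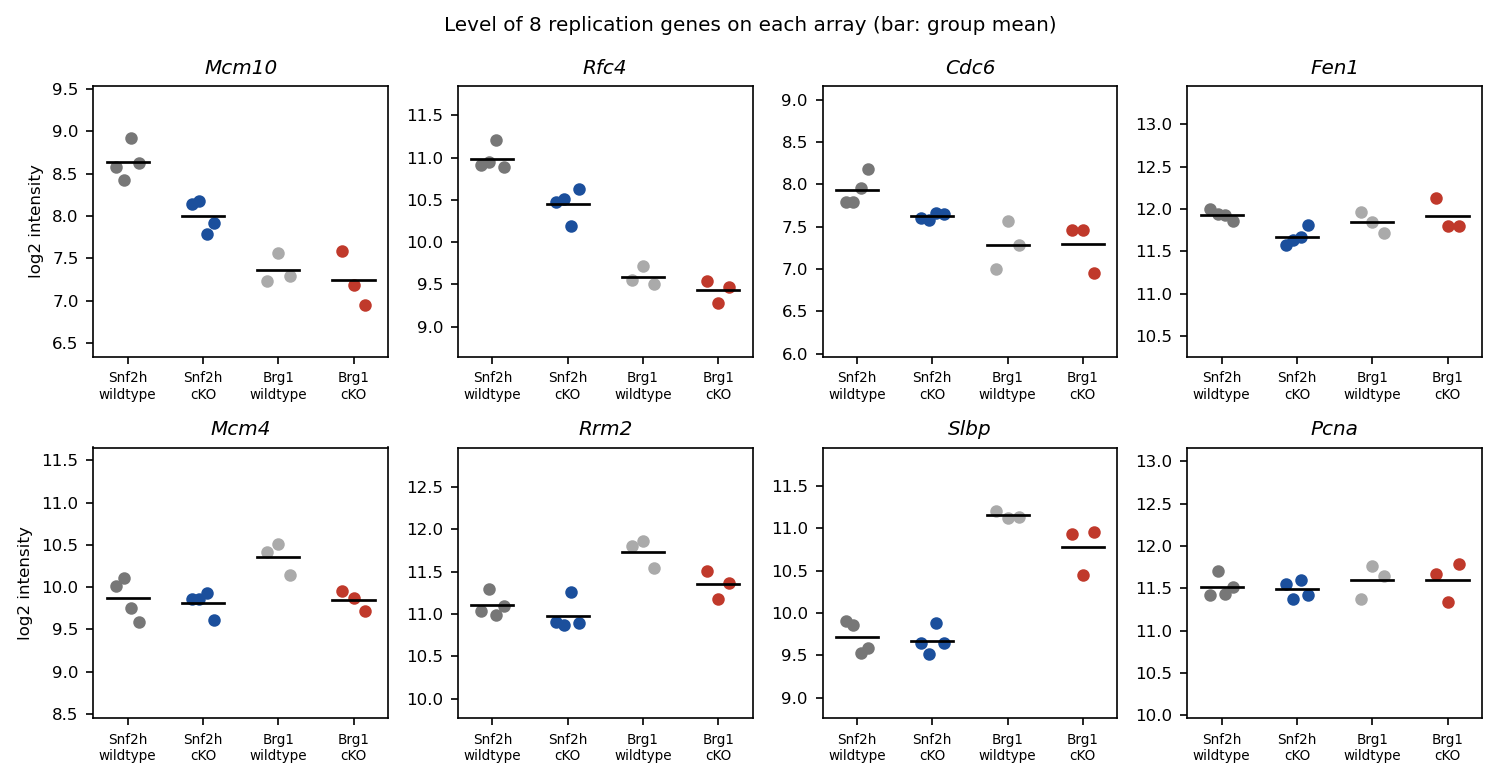
Log2 intensity of 8 genes on each of the 14 arrays (points, in replicate order) with the group mean (bar), each panel spanning the same range of log2 units. Mcm10, Rfc4, Cdc6 and Fen1 are lower on every Snf2h cKO array than on any Snf2h wildtype array, Mcm4, Rrm2 and Slbp are lower on every Brg1 cKO array than on any Brg1 wildtype array, and Pcna overlaps in both.

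The polymerases and primase showed 1 separated gene in each experiment. Prim1, the catalytic primase subunit, averaged 11.91 in wildtype and 11.64 in Snf2h cKO arrays, with every cKO array below every wildtype array and a change of −0.27 ± 0.12 (adjusted p = 0.300). Its other probe set gave 0.11, and in Brg1 cKO eyes the change was −0.08 ± 0.21 (means 10.84 and 10.76). Pola2, the regulatory subunit of polymerase alpha, read 7.19, 7.20 and 7.08 in Brg1 wildtype and 7.60, 7.35 and 7.27 in cKO arrays. The groups did not overlap, the change was 0.25 ± 0.16 (adjusted p = 0.758), and the mean of its probe sets turned it to −0.061. The other Pola2 probe set was dim, at a mean log2 level of 3.74, so that turn rests on a dim probe set. Pola2 in Snf2h cKO eyes gave 0.28 ± 0.17 (means 7.24 and 7.52).

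Pola1, the catalytic subunit of polymerase alpha, read 6.95, 7.26 and 7.18 in Brg1 wildtype and 7.08, 6.42 and 6.89 in cKO arrays. The change of −0.33 ± 0.22 (adjusted p = 0.756) was −0.15 without cKO replicate 2, the lowest array. Pola1 in Snf2h cKO eyes gave −0.28 ± 0.16 (means 7.58 and 7.30). Pold1, the catalytic subunit of polymerase delta on the lagging strand, had wide errors, with −0.43 ± 0.26 (means 11.11 and 10.68) and 0.43 ± 0.38 (means 8.81 and 9.24) in the Snf2h and Brg1 experiments. Pole, the leading strand polymerase subunit, gave −0.05 ± 0.14 (means 9.64 and 9.58) and −0.06 ± 0.22 (means 8.29 and 8.23).

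Pcna, the sliding clamp that holds polymerases on DNA and a common marker of cycling cells, was close to wildtype in both knockouts. It read 11.42, 11.70, 11.43 and 11.51 in wildtype and 11.56, 11.38, 11.60 and 11.42 in Snf2h cKO arrays. The groups overlapped in part, with a change of −0.03 ± 0.13 (adjusted p = 0.923) and a 95% interval of −0.31 to 0.25. In the Brg1 experiment it read 11.38, 11.77 and 11.65 against 11.66, 11.34 and 11.79. The change was −0.00049 ± 0.19 (adjusted p = 0.999), with a 95% interval of −0.46 to 0.45, and in both knockouts its sign turned when single arrays were left out.

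Of the clamp loader genes, which encode the complex that opens Pcna onto DNA, Rfc4 stood apart in Snf2h cKO eyes. It read 10.91, 10.95, 11.20 and 10.89 in wildtype and 10.48, 10.51, 10.19 and 10.63 in cKO arrays. Every cKO array was below every wildtype array, with means of 10.99 ± 0.15 and 10.45 ± 0.18 (SD, n = 4 each), or 69.1% of wildtype. The change was −0.53 ± 0.14 (SE, adjusted p = 0.169), −0.46 without wildtype replicate 3 and −0.55 with the near-identical arrays averaged (adjusted p = 0.247 and 0.383), and its adjusted p over the settings run was 0.0677 to 0.412. Its other probe set did not show this, reading 9.45, 9.54, 9.62 and 9.72 in wildtype and 9.64, 9.60, 9.41 and 9.39 in cKO arrays, a change of −0.08. Rfc4 in Brg1 cKO eyes gave −0.16 ± 0.16 (adjusted p = 0.844), from 9.55, 9.72 and 9.51 to 9.54, 9.29 and 9.47.

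The loader subunits Rfc2 and Rfc3 did not follow Rfc4 in Snf2h cKO eyes. Rfc2 averaged 10.29 and 10.50 (0.21 ± 0.14) there, and 9.88 and 9.98 (0.10 ± 0.19) in the Brg1 experiment. Rfc3 averaged 8.53 and 8.60 (0.07 ± 0.13) in the Snf2h experiment. In the Brg1 experiment Rfc3 read 8.09, 8.47 and 8.41 in wildtype and 8.10, 7.90 and 8.17 in cKO arrays. The groups overlapped by 1 wildtype array, and the change was −0.26 ± 0.18 (adjusted p = 0.763). A second Rfc3 probe set gave −0.65 (adjusted p = 0.648).

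On the lagging strand, Fen1, the nuclease that trims the flaps of Okazaki fragments, read 12.00, 11.94, 11.92 and 11.86 in wildtype and 11.57, 11.63, 11.67 and 11.81 in Snf2h cKO arrays. All cKO arrays were below all wildtype arrays by a small margin, and the change was −0.26 ± 0.12 (adjusted p = 0.293), while its other probe set gave 0.0033. Fen1 in Brg1 cKO eyes gave 0.07 ± 0.17 (means 11.84 and 11.91). Lig1, the ligase that seals the fragments, gave 0.05 ± 0.12 (means 9.36 and 9.41) and 0.09 ± 0.28 (means 9.11 and 9.21) in the Snf2h and Brg1 experiments. Rpa2, a subunit of the protein that coats single-stranded DNA, gave 0.12 ± 0.13 (means 9.59 and 9.71) and −0.02 ± 0.19 (means 9.35 and 9.33).

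Among the 5 nucleotide supply genes, 0 passed the test in either knockout. Rrm2, the regulated subunit of ribonucleotide reductase, which makes deoxynucleotides, read 11.80, 11.87 and 11.54 in Brg1 wildtype and 11.51, 11.18 and 11.37 in cKO arrays. The groups did not overlap, though the nearest arrays, at 11.54 and 11.51, were close, and the change was −0.38 ± 0.18 (adjusted p = 0.588). Its other probe sets gave −0.91 and −0.40 there (adjusted p = 0.746 and 0.812). Rrm2 in Snf2h cKO eyes gave −0.12 ± 0.14 (means 11.10 and 10.98), and Rrm1, the other reductase subunit, gave 0.17 ± 0.15 (means 9.44 and 9.61) and, in Brg1 cKO eyes, −0.13 ± 0.17 (means 9.15 and 9.03).

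Dut, the enzyme that keeps uracil out of DNA by removing dUTP, had a positive change in Snf2h cKO eyes. It read 9.50, 9.46, 9.18 and 9.19 in wildtype and 10.02, 9.90, 9.96 and 9.21 in cKO arrays. The cKO replicates 1 to 3 were above all wildtype arrays and cKO replicate 4 was not. The change was 0.44 ± 0.20 (adjusted p = 0.297), or 0.63 without cKO replicate 4, while its other probe set gave −0.19. In Brg1 cKO eyes Dut gave −0.27 ± 0.20 (means 11.12 and 10.85). Tyms, which makes thymidylate and was dim, gave 0.21 ± 0.28 (means 5.13 and 5.34) and −0.24 ± 0.32 (means 5.31 and 5.06). Tk1, the S phase thymidine kinase, gave −0.09 ± 0.19 (means 8.47 and 8.38) and −0.02 ± 0.17 (means 9.51 and 9.50).

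The E-type cyclins, which drive entry into S phase, gave values near 0. Ccne1 averaged 7.35 in wildtype and 7.21 in Snf2h cKO arrays (−0.14 ± 0.17), and 7.44 and 7.50 in the Brg1 experiment (0.06 ± 0.17). Ccne2 averaged 7.08 and 6.90 (−0.18 ± 0.17), and 7.21 and 7.27 (0.06 ± 0.21). Adjusted p values were 0.584 to 0.960 for both.

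Of the genes that restore chromatin on new DNA, Slbp and Uhrf1 were among the 8 smallest p values in Brg1 cKO eyes. Slbp, which binds the stem-loop of replication-dependent histone mRNAs, read 11.20, 11.12 and 11.14 in Brg1 wildtype and 10.93, 10.45 and 10.95 in cKO arrays. The groups did not overlap and the change was −0.37 ± 0.19 (adjusted p = 0.651), or −0.21 without cKO replicate 2 and −0.10 with the mean of its probe sets. The other Slbp probe set was dim, at a mean log2 level of 2.05, so that last value rests partly on background. Uhrf1, which brings the maintenance DNA methyltransferase to new DNA, read 11.70, 11.65 and 11.28 against 11.29, 11.17 and 11.31. Its groups overlapped through wildtype replicate 3, and the change was −0.28 ± 0.18 (adjusted p = 0.740). The second Uhrf1 probe set read 7.80, 7.72 and 7.60 in wildtype and 7.06, 7.15 and 7.56 in cKO arrays. There the groups did not overlap and the change was −0.45 (limma over all probe sets, unadjusted p = 0.048, adjusted p = 0.612).

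Slbp in Snf2h cKO eyes gave −0.05 ± 0.14 (means 9.72 and 9.67) and Uhrf1 0.02 ± 0.15 (means 10.68 and 10.70). Chaf1b, a subunit of the histone chaperone CAF-1, gave −0.04 ± 0.15 (means 9.05 and 9.01) and, in Brg1 cKO eyes, 0.09 ± 0.19 (means 7.83 and 7.92). The 3 chromatin genes in Snf2h cKO eyes lay closest to 0 of any role group, from −0.05 to 0.02.

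Several genes are read by more than 1 probe set, which often differed. For 20 genes there were 28 further probe sets, and these had the same sign as the one used for 19 of 28 in Snf2h cKO and 24 of 28 in Brg1 cKO eyes. Of the 28, 0 passed the test in either knockout. A second Rrm2 probe set, named here after its values were seen, read 9.10, 9.03, 8.90 and 8.50 in wildtype and 7.71, 7.55, 8.32 and 8.01 in Snf2h cKO arrays. Its groups did not overlap and its change was −0.98 ± 0.20 (adjusted p = 0.0897 over all probe sets), against −0.12 for the brighter probe set used and 0.25 for the other one. Whether these probe sets read different transcripts was not tested.

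The difference between the knockouts was tested directly as Brg1 effect minus Snf2h effect. None of the 35 genes passed (smallest adjusted p = 0.297), where 0.928% of all genes did, and 3 were at an unadjusted p under 0.05, where 12.0% of all genes were. Mcm2 and Orc1 had higher changes in the Brg1 than in the Snf2h experiment, by 0.91 ± 0.34 and 0.95 ± 0.40 (adjusted p = 0.297 and 0.361). Dut had a lower one, by −0.71 ± 0.29 (adjusted p = 0.347). The other Mcm2 probe set changed by 0.017 in the Brg1 and −0.00084 in the Snf2h experiment. That of Dut changed by −0.43 and −0.19, in the same order. Without Brg1 cKO replicate 2, 0 of 35 genes were at an unadjusted p under 0.05 for the difference. Mcm10, with −0.63 and −0.12 in the Snf2h and Brg1 experiments, gave a difference of 0.51 (adjusted p = 0.450), so the experiments were not shown to differ in it.

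The companion lists of cycle genes also had 0 calls, where 0.0161% of all genes were called in Snf2h and 1.09% in Brg1 cKO eyes. Of 36 other replication genes measured (of 45 listed), 0 passed in either knockout, with medians of −0.12 in Snf2h and −0.09 in Brg1 cKO eyes. At an unadjusted p under 0.05, 3 were higher and 5 lower in Snf2h cKO, and 0 higher and 1 lower in Brg1 cKO eyes. Over all genes, 8.31% were higher and 8.62% lower in Snf2h cKO, and 5.45% and 3.77% in Brg1 cKO eyes. Gins4, another GINS subunit, gave −0.42 ± 0.12 (adjusted p = 0.178), Rpa1, the large subunit of the single-strand binding protein, gave −0.40 ± 0.14 (adjusted p = 0.233), Shmt1, an enzyme of one-carbon metabolism, gave −0.44 ± 0.15 (adjusted p = 0.219) and Timeless, a fork protection factor, gave −0.42 ± 0.16 (adjusted p = 0.250) in Snf2h cKO eyes. In Brg1 cKO eyes the smallest p belonged to Mcm9, a helicase of repair, with −1.16 ± 0.40 (adjusted p = 0.375) at dim levels of 5.38 and 4.22.

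Of 26 E2F and G1/S control genes measured (of 29 listed), 0 passed in either knockout, with medians of −0.15 and −0.13. In Snf2h cKO eyes E2f8, a repressor of the E2F family, gave −0.49 ± 0.12, the CDK inhibitor gene Cdkn1c gave −0.59 ± 0.15 (adjusted p = 0.163 for both) and the activator E2f1 gave 0.41 ± 0.16 (adjusted p = 0.260). In Brg1 cKO eyes Cdc25a, a phosphatase that activates CDKs, gave 0.71 ± 0.23 (adjusted p = 0.323) and Cdkn1c gave −0.74 ± 0.34 (adjusted p = 0.585). Of 33 mitosis genes measured (of 35 listed), 0 passed, with medians of −0.05 and −0.12. At an unadjusted p under 0.05, 3 mitosis genes were higher and 4 lower in Snf2h cKO eyes, where 8.31% and 8.62% of all genes were. In Brg1 cKO eyes 0 were higher and 1 lower, where 5.45% and 3.77% of all genes were. The smallest p belonged to Cenpe, a kinetochore motor, in Snf2h cKO eyes (1.23 ± 0.41, adjusted p = 0.210). In Brg1 cKO eyes it belonged to Ube2c, a ubiquitin-conjugating enzyme of mitotic exit (−0.42 ± 0.17, adjusted p = 0.520).

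Array by array, the median difference of the 35 genes from their own wildtype mean stayed close to 0. It was −0.02, 0.05, −0.09 and −0.01 on the wildtype and −0.03, −0.10, 0.04 and −0.12 on the cKO arrays of the Snf2h experiment. In the Brg1 experiment it was −0.05, 0.13 and −0.03 on the wildtype and 0.07, −0.21 and −0.11 on the cKO arrays, and the groups overlapped in both. Brg1 cKO replicate 2, the lowest array, also had the lowest medians of mitosis genes (−0.41) and retinal progenitor markers (−0.38), and the part of that array in the result was not tested.

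Some tissue marker lists of the Brg1 cKO eyes differed far more than their replication genes, and others did not. All 16 lens fibre markers had negative changes and 4 passed the test, with a median change of −2.29. Of 11 wound keratinocyte markers 10 had positive changes and 6 passed as higher, with a median of 2.98. All 17 macrophage markers had positive changes and 3 passed (median 1.08). Of 15 neutrophil markers 12 had positive changes and 3 passed as higher (median 0.95). Over all genes, 1.09% passed in either direction. The summed levels moved apart too, with mean log2 levels of the lens fibre list at 11.3 to 11.5 in wildtype and 7.85 to 10.3 in cKO arrays, and of the wound keratinocyte list at 4.64 to 4.82 and 7.27 to 8.01. The macrophage list lay at 6.22 to 6.79 and 7.32 to 8.22, and the neutrophil list at 4.05 to 4.37 and 5.24 to 6.63. Other lists had smaller medians and 0 calls in Brg1 cKO eyes. These were retinal progenitor (−0.21), photoreceptor (0.20), stroma (−0.22), endothelium (0.41), red blood cell (−0.05) and skeletal muscle markers (0.23). The 35 replication genes had a median of −0.06 in the same eyes, and the part of these tissue changes in their values was not tested.

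In Snf2h cKO eyes the same marker lists had 0 calls, where only 0.0161% of all genes were called. Medians were −0.22 for lens fibre, −0.14 for 13 lens epithelium, 0.06 for retinal progenitor, 0.37 for 14 photoreceptor and −0.46 for 15 stroma markers. The lens epithelium list had 11 of 13 negative changes in Snf2h and 12 of 13 in Brg1 cKO eyes (median −0.25). It shares Pax6 and Six3 with the retinal progenitor list and Cdh1 with a list of surface epithelium markers, so it does not follow lens epithelium alone. Of these 13, 1 passed the test as lower in Brg1 cKO eyes. The mean level of that list was 7.92 to 7.99 in wildtype and 7.47 to 7.77 in Snf2h cKO arrays, with no overlap. The Gapdh gap, 1.09 to 4.47 in wildtype and 0.77 to 0.99 in cKO arrays, also separated the groups. Mcm10, Rfc4, Cdc6, Prim1 and Fen1 separated them too, but were listed above for that separation. Within the cKO arrays the list mean was lower in replicates 1 and 2 than in the others. So were Cdc6 and Fen1, while Mcm10 and Prim1 were higher there and Rfc4 was mixed. Since cKO replicates 1 and 2 were near-identical, this rests on fewer independent arrays. For Cdc6 the values were close, at 7.60 and 7.58 against 7.66 and 7.65. The part of the lens epithelium and Gapdh differences in the values of these genes was not tested.

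**Figure D3:**
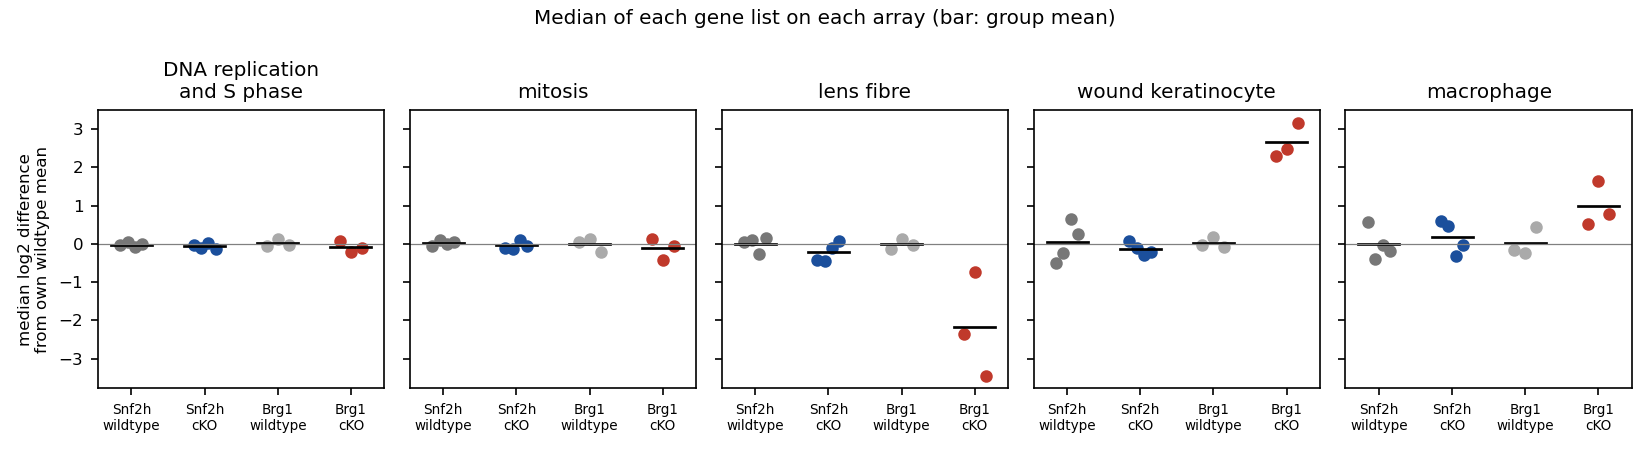
Median log2 difference from the wildtype mean of the same experiment for 5 gene lists on each of the 14 arrays (points), with the group mean (bar). The DNA replication and S phase list stays between −0.21 and 0.13, while on the Brg1 cKO arrays the lens fibre list reaches −3.45 and the wound keratinocyte list 3.16.

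Levels in the 2 wildtype groups are given as a description, because strain and experiment cannot be told apart there and no test was made. Of the 35 genes, 4 were over a log2 difference of 1 higher in the wildtype eyes of the Brg1 than of the Snf2h experiment, and 6 were as much lower, while 19.2% of all genes were past 1 in either direction. By the probe set used, Dut (1.79), Slbp (1.43), Tk1 (1.04) and Orc6 (1.02) were higher. Pold1 (−2.30), Rfc4 (−1.39), Pole (−1.34), Mcm10 (−1.28), Chaf1b (−1.22) and Prim1 (−1.07) were lower. The other Dut probe set went the other way, at 7.73 to 7.87 in Snf2h wildtype and 7.17 to 7.69 in Brg1 wildtype arrays. The other probe sets of Rfc4 (9.45 to 9.72 against 9.02 to 9.24) and Prim1 (10.10 to 10.62 against 9.60 to 10.17) had smaller gaps. For Mcm10 and Rfc4 this gap between wildtypes was larger than either knockout change. The median size of the difference was 0.40 for the 35 genes and 0.47 over all genes, and Pcna (0.08) and Mcm3 (0.01) had nearly the same level in both.

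**Figure D4:**
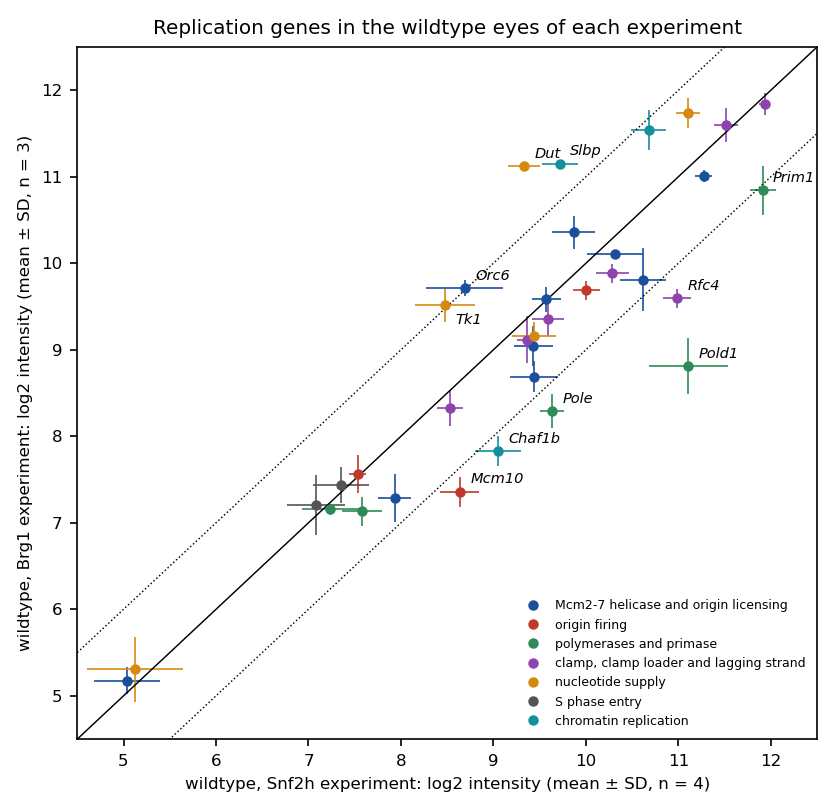
Mean log2 intensity of each of the 35 genes in the wildtype eyes of the Snf2h experiment (x axis, n = 4) and of the Brg1 experiment (y axis, n = 3), with SD bars, the line of equality and dotted lines at a difference of 1. Named genes lie past the dotted lines by the probe set used, Dut furthest above at 1.79 and Pold1 furthest below at −2.30. The other Dut probe set went the other way.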

How the data were processed

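For 14 samples of whole mouse eye, 50 ng of total RNA each was amplified, labelled with biotin and hybridised to single-colour Affymetrix arrays, per the labels' protocols. The authors deposited 1 linear intensity per probe set and array. The submitters' processing notes name RMA, whose version is not given in the sources used here, nor whether the experiments were normalised jointly. Of 22690 probe sets, the platform annotation gave 1 gene to 20380, several to 691 and none to 1555, and 64 were controls. Deposited intensities were turned to log2 without other scaling, and each gene was represented by its one-gene probe set with the highest mean over the 14 arrays (12393 genes). Each knockout was compared with its own wildtype in limma 3.58.1 (lmFit, eBayes; R 4.3.3), two-sided, and the difference between knockouts as an interaction over all arrays. P values were adjusted by Benjamini-Hochberg over all genes and called under 0.05. Errors of changes are moderated standard errors, and the test was checked on simulated data. The number of arrays limits the precision.

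The members and lists were chosen with earlier results of these data known, among them those for Mcm10 and Rfc4, so nothing here is independent support for them. Values were given in full for the 8 members with the smallest p in each knockout, Pcna and Mcm2-7, and for up to 4 genes of each companion list. The labels' replicate numbers did not pair the samples (correlations of same-numbered deviations −0.27 to 0.10), so no block was used. Alternatives were quantile normalisation, a filter on dim probe sets (mean log2 under 6.87, leaving 7087 genes), the mean of a gene's probe sets, trended robust eBayes, array weights, the replicate block, 1 fit over all arrays, averaging the near-identical arrays and leaving out each array. Promoters came from RefSeq (GRCm38.p6). No array positions are given, since the array annotation names no genome build.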

Additional observations from a re-analysis of the deposited data

Results flagged for a closer look

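For each of the 35 genes the highest or lowest array of each group of 4 was compared with its neighbour by Dixon's ratio. Of 70 groups tested in the Snf2h experiment, 7 held an array far from the others, and chance flags about 1 in 20 groups. Groups of 3, as in the Brg1 experiment, were not tested. The cKO replicates 1 and 2 were near-identical, which leaves fewer independent arrays in the cKO group, and 6 of the 7 arrays were cKO replicate 3 or 4.

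In cKO replicate 3, Orc6 read 9.48 against 8.99 to 9.06 on the other cKO arrays, Rrm1 read 9.45 against 9.65 to 9.67, and Rrm2 read 11.26 against 10.87 to 10.91. In cKO replicate 4, Rpa2 read 9.55 against 9.77 to 9.78, Dut read 9.21 against 9.90 to 10.02, and Tk1 read 8.74 against 8.22 to 8.30. In wildtype replicate 4, Rfc2 read 10.55 against 10.17 to 10.22. These are log2 intensities, and Dut, the only gene of the 7 among the smallest p values in the Snf2h experiment, had a change of 0.63 without cKO replicate 4 against 0.44 with it.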

How the results depend on the processing

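The count of called members was 0 in both knockouts and in their difference under all settings run, while calls over all genes ranged from 0 to 230 in Snf2h and from 19 to 260 in Brg1 cKO eyes, and the smallest adjusted p of a member from 0.0677 to 0.412 and from 0.201 to 0.791. Without each array in turn, the median change of the members ranged from −0.106 to −0.000023 in Snf2h cKO eyes, the lowest being without wildtype replicate 3, and from −0.157 to −0.0016 in Brg1 cKO eyes. With the replicate block 0 members were called, and 0 and 49 of all genes in Snf2h and Brg1 cKO eyes against 2 and 135 without it. Near-zero changes turned sign when single arrays were left out. So did some larger ones, up to 0.24 in size in Brg1 cKO eyes without cKO replicate 2. In Snf2h cKO eyes Pcna ranged from −0.065 to 0.034, Mcm4 from −0.14 to 0.029 and Mcm5 from −0.049 to 0.15. In Brg1 cKO eyes Pcna ranged from −0.11 to 0.13, Mcm5 from −0.22 to 0.079, Mcm6 from −0.045 to 0.026 and Mcm7 from −0.19 to 0.066. There Pcna was also 0.044 with quantile normalisation and 0.073 with array weights, and Mcm6 was 0.028 with quantile normalisation. Pola2 was −0.061 with the mean of its probe sets, which includes a dim one. The cause of these turns was not tested. Other members were followed by count, with at most 5 of 35 signs turned per setting in Snf2h and 12 of 35 (without cKO replicate 2) in Brg1 cKO eyes. No background signal came with the values, so dim genes (Orc1, Tyms) are the least certain.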
